A study of Saccharomyces cerevisiae with 12 samples.

Results

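The messages described here are those of 9 budding yeast genes whose proteins fold other proteins inside the endoplasmic reticulum (ER), and of HAC1, which encodes the transcription factor that raises many of the same genes when folding in the ER fails. The 10 genes were chosen by name from the knowledge of their function, and all 10 were found among the 7126 counted features and passed the filter on low counts that left 5245. The data are counts of RNA recovered by immunoprecipitation after UV cross-linking from Saccharomyces cerevisiae grown in full medium at 25 °C and then held for 30 min at 25 °C or at 42 °C, a heat stress. The strain HKY157 was used for the precipitation of Npl3, an RNA-binding protein that joins messages in the nucleus, and the strain HKY1266 for that of Mex67, the receptor that carries messages through the nuclear pore. A control without a tag, labelled with the pair of strains HKY36/HKY381, was taken through the same steps, so there were 3 kinds of precipitate at 2 temperatures with 2 libraries each. The labels do not say which control library came from which strain, nor which samples met the c-myc antibody beads and which the GFP-Trap beads, so a difference of strain or of beads and a difference of the precipitated protein cannot be told apart. The tagged alleles themselves are not described in the labels. Both libraries of each group are biological replicates according to the series design. No library of the cells' whole RNA was analysed here, so a change in how much of a message a cell held and a change in how much of it was attached to the protein cannot be told apart, nor can fewer cells and less RNA per cell.

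Proteins that enter the secretory pathway fold in the ER with the help of chaperones that hold unfolded stretches and of enzymes that form and reshuffle disulfide bonds. Kar2, the ER member of the Hsp70 family and the yeast BiP, binds and releases its clients in a cycle of ATP use: J-domain proteins such as Scj1 and Jem1 start the hydrolysis, and Sil1 and Lhs1 exchange the nucleotide. Pdi1 and its relative Eug1 handle disulfide bonds, Ero1 passes oxidizing power to Pdi1, and Cne1 is the yeast calnexin, which binds glycoproteins. When unfolded proteins gather, the sensor Ire1 cuts the intron out of the HAC1 message in the cytoplasm, a tRNA ligase joins the ends, and the Hac1 protein made from the spliced message turns on the genes of the unfolded protein response (UPR), KAR2 and PDI1 among them.

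The libraries held between 87741 and 1140349 counts, and the 10 messages together took from 0.187% of them in Npl3 replicate 1 at 42 °C to 0.666% in Mex67 replicate 1 at 42 °C. Levels are given as CPM (counts set to a common library total) scaled with TMM, a correction for differences in library composition. HSP26, a small heat shock protein gene, lay at 56.8 to 634 CPM at 25 °C and at 3553 to 10331 CPM in 5 of the 6 heated libraries. HSP26 stood at only 301 CPM in the sixth, no-tag replicate 1, which was also the smallest library, and the values of KAR2, HAC1 and the members nearest the threshold in the comparisons that use it are also given without it. HSP104 and SSA4, also chosen as checks of the heat, separated the temperatures less cleanly. Without a tag, with Npl3 and with Mex67, HSP104 differed with heat by −0.12 ± 0.59, 0.38 ± 0.59 and 1.23 ± 0.59 (log2, SE). SSA4 differed by 1.36 ± 0.85, 1.50 ± 0.84 and 3.84 ± 0.93. In Npl3 replicate 1 SSA4 stood at 601 CPM at 25 °C and at 578 CPM at 42 °C. STE2, the pheromone receptor gene of cells of mating type a, lay at 0 to 7.75 CPM in the 6 libraries numbered 1 and at 126 to 356 CPM in the 6 numbered 2. STE3 and SAG1, which are specific to mating type alpha, followed the strain more than the number: STE3 lay at 300.3 to 468 CPM in the no-tag libraries, 1.24 to 54.5 with Npl3 and 23.4 to 202 with Mex67, and SAG1 at 701 to 1124, 11.2 to 206 and 110.1 to 1396 CPM. The part of these differences in the results below was not tested. NPL3 itself was above the control in the Npl3 precipitates by 2.26 ± 0.51 (log2, SE) at 25 °C and by 1.79 ± 0.51 at 42 °C (edgeR's quasi-likelihood test with Benjamini-Hochberg adjustment, adjusted p = 0.0419 and 0.0496), while MEX67 in the Mex67 precipitates differed by −0.07 ± 0.43 and 0.79 ± 0.48 (adjusted p = 1 and 0.53).

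The 10 messages spanned a wide range of levels. Per kilobase of gene and averaged over the 12 libraries, HAC1 (YFL031W; build R64, chromosome VI, 75179 to 76147, a span of 969 bp that includes its intron) was the most abundant of them at 1257 CPM per kb, a level above 97.4% of the genes tested. PDI1 (YCL043C; chromosome III, 48653 to 50221) followed at 740.3 CPM per kb and KAR2 (YJL034W; chromosome X, 381327 to 383375) at 557 CPM per kb. ERO1 (YML130C; chromosome XIII, 11483 to 13174) came next at 93.8 CPM per kb. The co-chaperone genes SCJ1 (YMR214W; chromosome XIII, 695350 to 696483), LHS1 (YKL073W; chromosome XI, 296430 to 299075) and SIL1 (YOL031C; chromosome XV, 266264 to 267529) stood at 59.0, 47.1 and 44.0 CPM per kb, and EUG1 (YDR518W; chromosome IV, 1478608 to 1480161) at 42.1 CPM per kb, all near the median of 46.5 over all genes tested. JEM1 (YJL073W; chromosome X, 303181 to 305118) at 20.3 and CNE1 (YAL058W; chromosome I, 37464 to 38972) at 15.8 CPM per kb were the least abundant. Over the 12 libraries the range of each of the 10 overlapped that of its neighbour in this order. No other gene of the RefSeq annotation overlaps any of the 10, but overlap with counted features not matched to that annotation was not examined. The counts do not separate spliced from unspliced HAC1.

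KAR2 was lower in the Npl3 precipitates than in all others. Without a tag it stood at 1584 and 1549 CPM at 25 °C and at 1154 and 1375 CPM at 42 °C. With Npl3 it had 882 and 512 CPM at 25 °C and 227 and 721 CPM at 42 °C. With Mex67 it had 1114 and 1202 CPM at 25 °C and 1637 and 1743 CPM at 42 °C. All 4 Npl3 libraries thus lay below all 8 others, and the heated Mex67 pair was the highest of the 12 libraries. For such orders across groups, here and below, no share of all features was taken. Both Npl3 libraries lay below both controls for 27% of all features at 25 °C and 24.5% at 42 °C. KAR2 was not called against the control at either temperature.

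The partners of Kar2 were less abundant. LHS1, the Hsp70-like exchange factor, ranged from 142 to 234 CPM in the no-tag libraries, from 54.6 to 125 CPM with Npl3 and from 86.3 to 136 CPM with Mex67, so that its no-tag libraries lay above all 8 others. SIL1, the other exchange factor, ranged from 41.5 to 100.4 CPM without a tag, from 26.1 to 54.5 CPM with Npl3 and from 32.8 to 91.7 CPM with Mex67, and these ranges overlapped. SCJ1, the J-domain protein gene of the ER lumen, had 44.4 and 47.2 CPM with Npl3 at 25 °C and 23.6 and 64.6 CPM at 42 °C. Its no-tag values were 69.3 and 80.1 CPM at 25 °C and 50.2 and 84.8 CPM at 42 °C, and with Mex67 it had 69.8 and 79.6 CPM at 25 °C and 104 and 84.1 CPM at 42 °C. JEM1, which encodes the J-domain protein of the ER membrane, was the one member above the no-tag pair in both Npl3 libraries at both temperatures. The same held for 28.2% of all features at 25 °C and 34.9% at 42 °C, each temperature taken alone. JEM1 stood at 35.5 and 17.8 CPM without a tag at 25 °C and at 33.5 and 29.8 CPM at 42 °C, against 43.0 and 37.6 CPM and 41.0 and 48.7 CPM with Npl3. The order rests on few control counts: JEM1 had 2 in heated no-tag replicate 1 and 6 in no-tag replicate 2 at 25 °C.

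**Figure D1:**
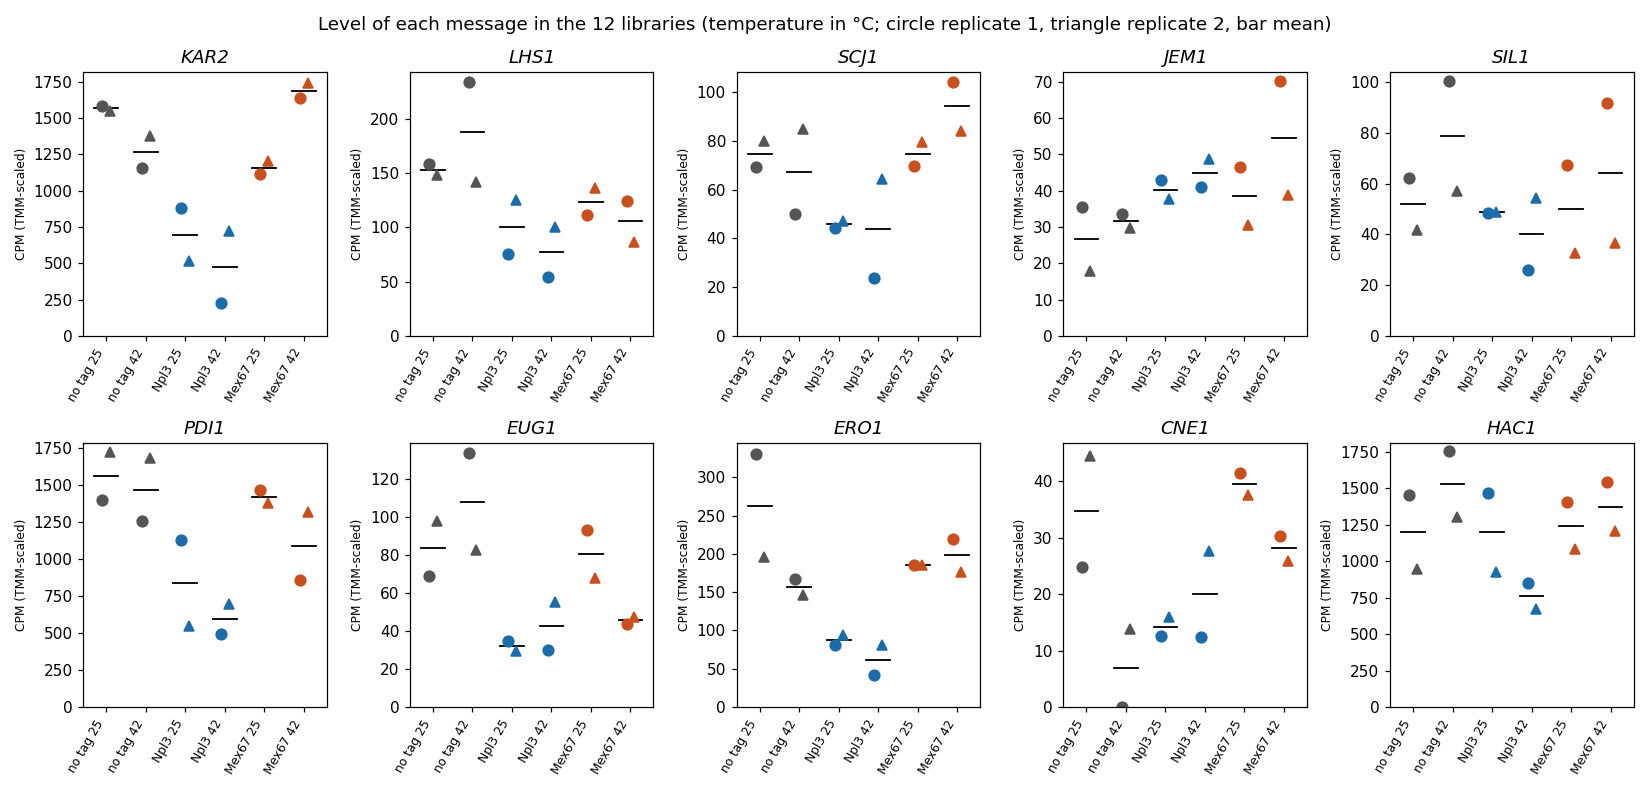
Level of each of the 10 messages in CPM (TMM-scaled, linear axis from 0) in the 12 libraries, grouped by precipitate and temperature, with circles for replicate 1, triangles for replicate 2 and a bar for the mean of 2. KAR2 and ERO1 are lower in all 4 Npl3 libraries (blue) than in the 8 others, and the spread between replicates is widest with Npl3 at 42 °C for KAR2.

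Among the genes of disulfide formation, PDI1 was at 1399 and 1721 CPM without a tag at 25 °C and at 1255 and 1682 CPM at 42 °C. With Npl3 it had 1127 and 550.1 CPM at 25 °C and 495 and 693 CPM at 42 °C, and with Mex67 1463 and 1379.6 CPM at 25 °C and 860.2 and 1314 CPM at 42 °C. The no-tag and Npl3 pairs did not overlap at either temperature, whereas heated Mex67 replicate 1 lay below the higher Npl3 library at 25 °C. ERO1, the oxidase gene, had 330.3 and 196 CPM without a tag at 25 °C and 167 and 147 CPM at 42 °C. It had 80.5 and 94.5 CPM with Npl3 at 25 °C and 42.2 and 80.6 CPM at 42 °C, against 186 and 185 CPM and 219 and 177 CPM with Mex67. As for KAR2, every Npl3 library was below every other library.

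EUG1, the PDI1 relative, stood at 69.3 and 97.9 CPM without a tag at 25 °C and at 134 and 82.5 CPM at 42 °C. With Npl3 it had 34.7 and 29.6 CPM at 25 °C and 29.8 and 55.4 CPM at 42 °C. With Mex67 it had 93.0 and 67.9 CPM at 25 °C and 43.8 and 47.5 CPM at 42 °C, so the heated Mex67 pair lay in the range of the Npl3 libraries and below all 4 no-tag libraries. CNE1, the calnexin gene, had 24.9 and 44.5 CPM without a tag at 25 °C and 12.5 and 16.0 CPM with Npl3 there. At 42 °C it had no count in no-tag replicate 1, where the 3 counts that a count of 0 allows correspond to 50.2 CPM, and 13.8 CPM in replicate 2. The other CNE1 values were 12.4 and 27.7 CPM with Npl3 at 42 °C, and 41.4 and 37.5 CPM at 25 °C and 30.3 and 25.9 CPM at 42 °C with Mex67.

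HAC1 did not share the order of KAR2. It stood at 1453 and 946 CPM without a tag and at 1472 and 925 CPM with Npl3 at 25 °C, and at 1406 and 1084.5 CPM with Mex67. At 42 °C it had 1757 and 1302 CPM without a tag, 851 and 676 CPM with Npl3 and 1543 and 1206 CPM with Mex67. The 3 precipitates overlapped at 25 °C, and at 42 °C both Npl3 libraries lay below the 10 other libraries.

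Of the 10 messages, 6 had their lowest level of all 12 libraries in Npl3 replicate 1 at 42 °C: KAR2, LHS1, PDI1, ERO1, SCJ1 and SIL1. The highest levels of 4 messages, LHS1, SIL1, EUG1 and HAC1, were in the small heated no-tag library, where they rested on 14, 6, 8 and 105 counts. KAR2 rested on 69 counts there and PDI1 on 75. How many of all features had their lowest or highest level in these libraries was not taken, so neither count is a trait of the 10. Over the 12 libraries the Pearson correlation of log2 CPM between 2 members had a median of 0.46 over the 45 pairs, with KAR2 highest with SCJ1 and ERO1, at 0.89 for both, and the lowest pair at −0.50. These correlations share the libraries, their depth and the groups, and are given as a description.

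The heat comparisons asked whether the level of these messages in each precipitate differed between 42 °C and 25 °C. Equally numbered libraries of a strain are called a culture here and below, a pairing that the labels do not state. For none of the 10 did the difference pass the threshold, an adjusted p of 0.05 in edgeR's quasi-likelihood test, in any strain. In the no-tag libraries 0 of 10 were called, where 0% of all 5245 features were called, and KAR2 differed by −0.30 ± 0.57 (log2, SE), with the heated library lower in both cultures, and by −0.19 ± 0.75 without heated no-tag replicate 1. In the Npl3 precipitates 0 of 10 were called against 0% of all features, and KAR2 differed by −0.55 ± 0.57, by −1.94 in 1 culture and 0.49 in the other. In the Mex67 precipitates 0 of 10 were called against 0% of all features, and KAR2 differed by 0.55 ± 0.57, higher in both cultures. DESeq2 called 0 of the 10 in each strain. With Npl3, though, it gave an adjusted p to only 1 of 96 related ER genes, and a gene without one counts as not called. At an unadjusted p under 0.05 in edgeR there were 1, 0 and 0 members, beside 2.12%, 11% and 10.1% of all features. The 1 member was CNE1 in the no-tag libraries at −1.53 ± 0.71 (edgeR, adjusted p = 1), which lost this level, at −1.28 ± 0.72, without heated no-tag replicate 1.

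HAC1 differed with heat by 0.34 ± 0.51 in the no-tag libraries (0.12 ± 0.63 without heated replicate 1), by −0.65 ± 0.50 with Npl3 and by 0.14 ± 0.50 with Mex67 (adjusted p = 1, 0.634 and 0.952). It was higher at 42 °C in both cultures of the no-tag and Mex67 strains and lower in both of the Npl3 strain. EUG1 with Mex67 was lower in both cultures, at −0.82 ± 0.41 (adjusted p = 0.511), and PDI1 was lower in both cultures without a tag and with Mex67. The median over the 10 was 0.08, −0.31 and 0.12 in the 3 strains, beside −0.07, 0.10 and 0.05 over all features. The 95% intervals of KAR2 ran from −1.53 to 0.92, from −1.78 to 0.67 and from −0.68 to 1.77, so a doubling, 1 on the log2 scale, lay inside the last of them. With the 25 °C and 42 °C samples of each culture paired in the fit, 46 of all features were called with Npl3 and 3 with Mex67, and still 0 of the 10 members.

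**Figure D2:**
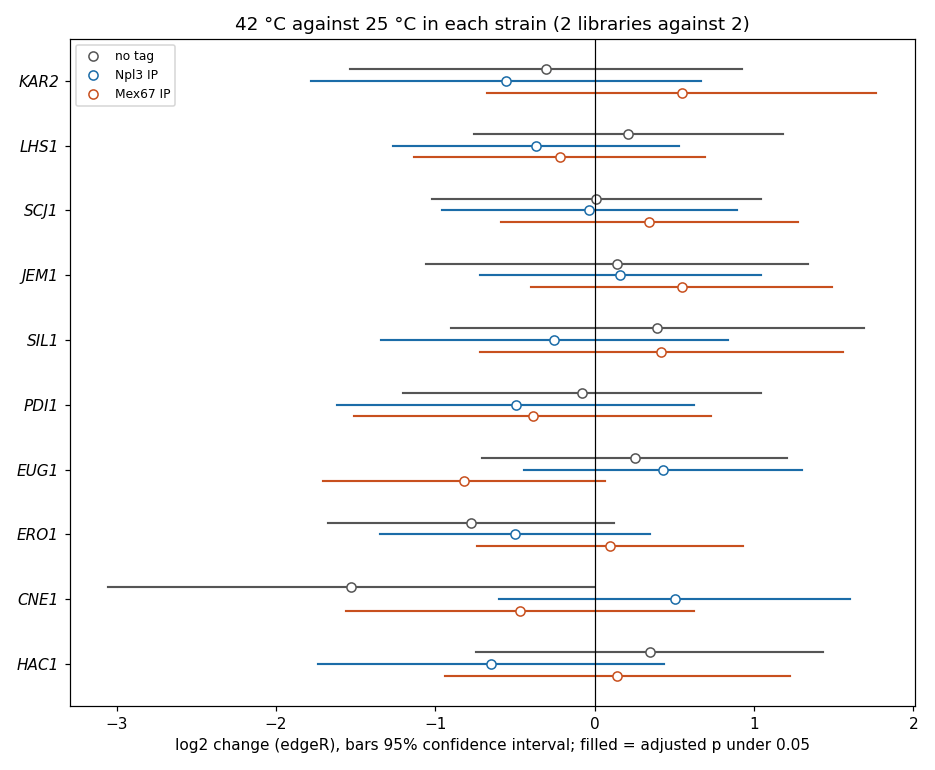
Log2 change at 42 °C against 25 °C for each message in the no-tag, Npl3 and Mex67 libraries, from edgeR, with bars for the 95% confidence interval and open circles where the adjusted p is 0.05 or more. All 30 circles are open; the interval of CNE1 in the no-tag libraries reaches from −3.05 to −0.01, and the other 29 cross 0.

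Whether heat acted differently on a message in a precipitate than in the control was tested as a difference of the heat changes. For Npl3, 0 of 10 members and 0% of all features were called, and for Mex67 again 0 of 10 and 0%. KAR2 differed by −0.25 ± 0.80 for Npl3 and by 0.85 ± 0.80 for Mex67, and HAC1 by −0.99 ± 0.71 and −0.20 ± 0.71 (edgeR, adjusted p at least 0.996 for all 4). Without heated no-tag replicate 1 KAR2 was at −0.44 ± 0.96 and 0.78 ± 0.97, and HAC1 at −0.87 ± 0.80 and 0.07 ± 0.81. At an unadjusted p under 0.05 there were 1 and 0 members, beside 2.92% and 3.55% of all features, and DESeq2 called 0 of the 10 in both. The 1 was CNE1 for Npl3 at 2.03 ± 0.87, which had no count in heated no-tag replicate 1 and was 1.70 ± 0.87 without that library.

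The comparison of the Npl3 precipitate with the control asked which messages were recovered above or below the background at each temperature. At 25 °C, 9 of the 10 members had lower estimates with Npl3 than without a tag, beside 50% of all features. The 9 include HAC1, whose estimate was −0.00. The median over the 10 was −0.79 (log2) beside −0.00 over all features. None passed the test: 0 of 10 were called, where 2.4% of all features were, 119 higher and 7 lower. ERO1 came nearest at −1.59 ± 0.39, a 3.01-fold lower level (adjusted p = 0.0528), followed by EUG1 at −1.37 ± 0.41 (adjusted p = 0.0885). CNE1 at −1.21 ± 0.53 (adjusted p = 0.22) also had an unadjusted p under 0.05, which made 3 members beside 20.6% of all features. KAR2 differed by −1.17 ± 0.57 (adjusted p = 0.265) and HAC1 by −0.00 ± 0.50, with a 95% interval from −1.08 to 1.08. For 7 members both Npl3 libraries lay below both controls, namely KAR2, LHS1, PDI1, ERO1, SCJ1, EUG1 and CNE1, and 27% of all features did the same. ERO1 passed the threshold in DESeq2 (−1.57, adjusted p = 0.0193), with no low-count filter (−1.55, adjusted p = 0.032) and with the replicate number as a block (−1.59, adjusted p = 0.0345), and in none of the 8 other settings.

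At 42 °C, 8 of the 10 members had lower estimates with Npl3 than without a tag, beside 46% of all features. The median over the 10 was −1.09 beside 0.10 over all features. Again 0 of 10 were called, where 7.45% of all features were, 342 higher and 49 lower. The estimates were −1.42 ± 0.58 for KAR2 (adjusted p = 0.133), −1.32 ± 0.42 for ERO1 (0.0707), −1.31 ± 0.53 for PDI1 (0.129), −1.19 ± 0.45 for LHS1 (0.109) and −1.19 ± 0.44 for EUG1 (0.104), all by edgeR. These 5 had an unadjusted p under 0.05, beside 28.1% of all features. HAC1 lay at −0.997 ± 0.51 (adjusted p = 0.218), and JEM1 and CNE1 were the 2 members with positive estimates. Both Npl3 libraries lay below both controls for 7 members, as they did for 24.5% of all features. DESeq2 called PDI1 (−1.31, adjusted p = 0.0392), and without Npl3 replicate 2 edgeR called KAR2 (−2.48 ± 0.72) and ERO1 (−1.86 ± 0.51), in settings where 555 and 666 of all features were called in place of 391.

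The control at 42 °C includes the small library with little HSP26. Without it, 1 of all features was called with Npl3 at 42 °C, in place of 391, and 0 were called without the other control library and 0 without Npl3 replicate 1. Without the small library the estimates were −1.58 ± 0.72 for KAR2, −1.56 ± 0.64 for PDI1, −1.30 ± 0.50 for ERO1, −0.93 ± 0.50 for LHS1 and −0.99 ± 0.48 for EUG1 (adjusted p from 0.188 to 0.31), with HAC1 at −0.85 ± 0.61. The median over the 10 was then −0.95, and it was −1.38 without the other control library. KAR2 was lower in each Npl3 library at 42 °C than in the remaining control library.

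**Figure D3:**
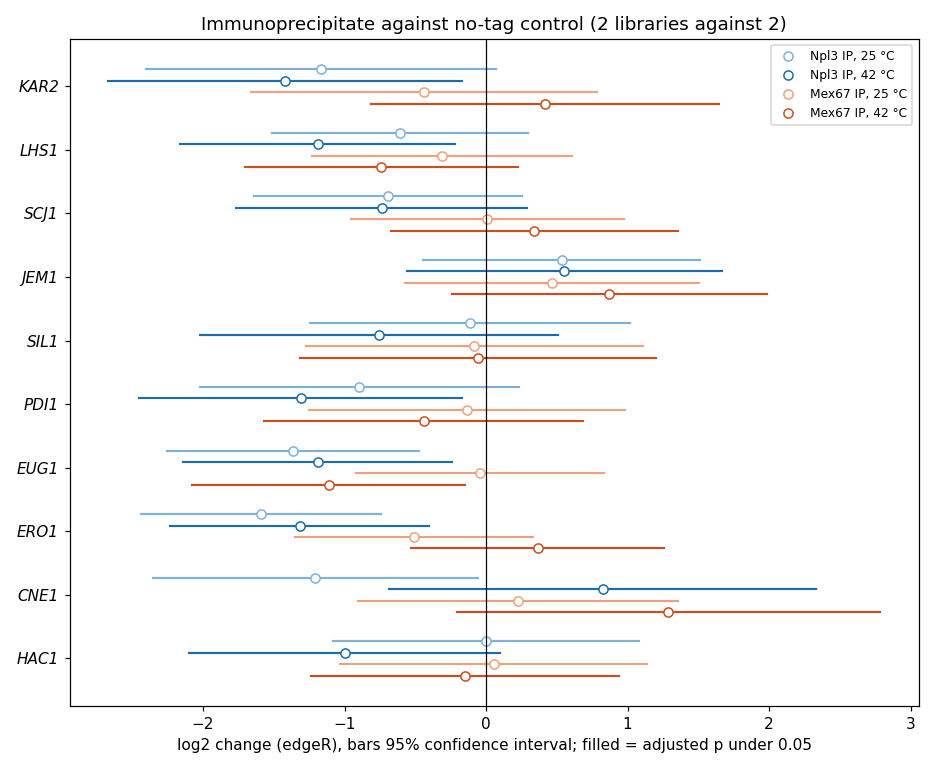
Log2 difference of each message between a precipitate and the no-tag control at the same temperature, from edgeR, with bars for the 95% confidence interval and open circles where the adjusted p is 0.05 or more. All 40 circles are open; the Npl3 values (blue) of KAR2, PDI1, EUG1 and ERO1 lie between −0.90 and −1.59 at both temperatures.

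The Npl3 precipitates also differed from the control with gene length. Over 5222 genes with a known length, the Spearman correlation of the log2 difference with length was −0.45 at 25 °C and −0.38 at 42 °C, a description across genes, which are not independent replicates. The 10 genes are 969 to 2646 bp long, beside a median of 1275 bp, and the 2716 other genes in that range of lengths had median differences of −0.15 and −0.06. Genes shorter than the 10 had median differences of 0.59 and 0.84. After a correction of each library for gene length, the median over the 10 members was −0.77 at 25 °C and −1.11 at 42 °C, ERO1 stood at −1.43 ± 0.38 and −1.25 ± 0.42 (adjusted p = 0.103 and 0.0999), and 1 and 0 of all features were called. Of the other members, LHS1 went from −0.61 to −0.29 at 25 °C and HAC1 from −0.997 to −1.33 at 42 °C.

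**Figure D4:**
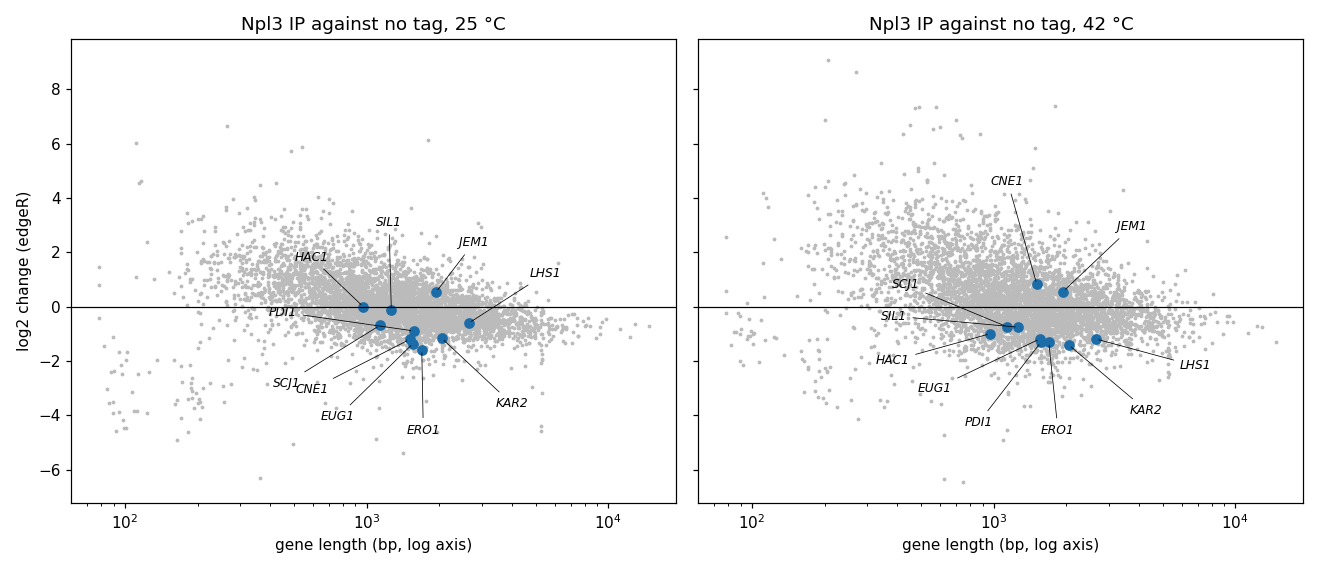
Log2 difference between the Npl3 precipitate and the no-tag control against gene length (bp, log axis) at 25 °C and 42 °C, with the 10 members in blue and the other genes tested in grey. Short genes lie mostly above 0. Of 10 members, 9 at 25 °C (HAC1 at −0.00) and 8 at 42 °C lie below 0, in the middle range of lengths.

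Against the control, the members' estimates with Mex67 lay on both sides of 0. At 25 °C, 0 of 10 were called and 0% of all features, the median over the 10 was −0.06, and KAR2 and HAC1 differed by −0.44 ± 0.57 and 0.05 ± 0.50 (edgeR, adjusted p = 0.9994 and 1). At 42 °C, 0 of 10 were called and 0% of all features, with KAR2 at 0.41 ± 0.57 and HAC1 at −0.15 ± 0.50 (adjusted p = 0.798 and 0.939). EUG1 at 42 °C was the only member with an unadjusted p under 0.05 in the 2 comparisons, at −1.11 ± 0.45 (edgeR, adjusted p = 0.421), beside 3.87% and 11.5% of all features. DESeq2 called 0 of the 10 in both. At 42 °C, though, it gave an adjusted p to only 13 related ER genes, against 96 at 25 °C, and a gene without one counts as not called. Without heated no-tag replicate 1, EUG1 was at −0.81 ± 0.49, KAR2 at 0.34 ± 0.75 and HAC1 at 0.12 ± 0.63. At 42 °C both Mex67 libraries lay above both controls for KAR2, ERO1, JEM1 and CNE1, beside 27.1% of all features, and below both for LHS1 and EUG1, beside 18.8%. For CNE1 this rests on a count of 0 in heated no-tag replicate 1, which allows up to 50.2 CPM, above both Mex67 values. JEM1 had only 2 counts in that control library. At 25 °C both Mex67 libraries lay below both controls for KAR2, LHS1 and ERO1, beside 15.8%, and above both for 0 members, beside 16.8%.

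The 2 precipitates were then set against each other, a comparison added after the values were seen, so that its result is a description of a contrast already visible in the levels. At 25 °C, 9 of 10 members had higher estimates with Mex67 than with Npl3, where 48.7% of all features had lower ones. Of the 10 members 0 were called, where 2.8% of all features were, 15 higher and 132 lower. The highest were CNE1 at 1.43 ± 0.53, EUG1 at 1.32 ± 0.41 and ERO1 at 1.08 ± 0.39 (edgeR, adjusted p = 0.127, 0.0849 and 0.125), with KAR2 at 0.73 ± 0.57 and HAC1 at 0.06 ± 0.50. CNE1, EUG1 and ERO1 had an unadjusted p under 0.05, beside 23.5% of all features, and DESeq2 called 0. At 42 °C all 10 had higher estimates, where 52% of all features had lower ones. Of the 10 members 1 was called, where 3.93% of all features were, 36 higher and 170 lower. The 1 was ERO1, 3.21-fold higher with Mex67 than with Npl3 (log2 1.68 ± 0.40, edgeR, adjusted p = 0.042, 95% interval 0.83 to 2.54). Both Mex67 libraries lay above both Npl3 libraries for ERO1, KAR2, PDI1, SCJ1 and HAC1, as they did for 23.5% of all features. With ERO1, KAR2 and SCJ1 had an unadjusted p under 0.05, beside 23.2% of all features. KAR2 had the highest estimate at 1.83 ± 0.58 (adjusted p = 0.088), SCJ1 came next after ERO1 at 1.08 ± 0.42 (adjusted p = 0.151), and HAC1 was at 0.85 ± 0.50 (adjusted p = 0.333).

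The call of ERO1 did not hold in every setting. After the length correction ERO1 stood at 1.53 ± 0.39 (edgeR, adjusted p = 0.101). The call was also lost with total counts as the scale (edgeR, adjusted p = 0.0737) and with only the compared groups in the fit (0.193). In these settings, in this order, 0, 9 and 0 of all features were called in place of 206. Without Npl3 replicate 1 ERO1 was at 1.30 ± 0.46, and without Mex67 replicate 1 or 2 at 1.59 ± 0.49 or 1.94 ± 0.48 (edgeR, adjusted p = 0.364, 0.0972 and 0.117). DESeq2 called both ERO1 and KAR2 (1.67 and 1.83, adjusted p = 0.014 and 0.0126), and without Npl3 replicate 2 edgeR called KAR2, ERO1 and SCJ1, in settings where 276 and 401 of all features were called in place of 206. The heat change with Mex67 minus that with Npl3 gave 0 of 10 calls and 0% of all features. EUG1 had an unadjusted p under 0.05 there at −1.25 ± 0.58, and KAR2 and HAC1 were at 1.10 ± 0.80 and 0.79 ± 0.71 (adjusted p near 1 for all 3).

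A ratio of 2 messages in the same library does not depend on how the library is scaled. KAR2 and PDI1, the Hsp70 and the disulfide isomerase of the same compartment, had similar numbers of counts in most libraries, and their ratio was taken after the values had been seen, with no test. In 9 of the libraries it lay between 0.761 and 1.13. It was 1.90 (95% exact binomial interval 1.77 to 2.05, counting error only) and 1.33 (1.19 to 1.48) in the heated Mex67 libraries. It was 0.459 (0.383 to 0.548) in heated Npl3 replicate 1 and 1.04 in replicate 2. The heated Mex67 pair therefore lay above all 10 other libraries. The counting intervals of the replicates did not overlap in the heated Npl3 pair, the heated Mex67 pair or the no-tag pair at 25 °C. In the heated Npl3 library with the low ratio, HAC1 had 3.75 counts for each count of KAR2, against 0.611 to 1.805 in the 11 others.

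**Figure D5:**
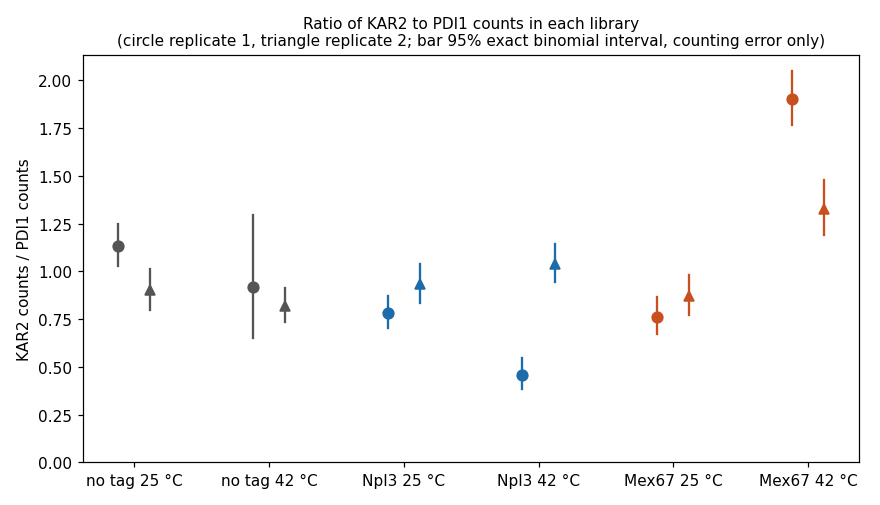
Ratio of KAR2 counts to PDI1 counts in each of the 12 libraries (linear axis from 0), with circles for replicate 1, triangles for replicate 2 and bars for the 95% exact binomial interval, which covers counting error only. The heated Mex67 libraries are highest at 1.90 and 1.33, and heated Npl3 replicate 1 is lowest at 0.459.

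Other genes of the pathway were taken from 6 lists of 96 genes, of which 94 were tested, and none was called in the heat comparison of any strain. The lists cover other folding enzymes (12 genes), UPR signalling (4), translocation and signal processing (19 tested of 21), N-glycosylation (25), ER-associated degradation (13) and exit from and return to the ER (21). At an unadjusted p under 0.05 the heat comparisons held 2 of the exit genes in the no-tag libraries. With Npl3 they held 1 translocation, 2 glycosylation and 2 exit genes. With Mex67 they held 1 gene each of UPR signalling, translocation and degradation, 4 of glycosylation and 2 of exit, and over all features the shares were 2.12%, 11% and 10.1% in the 3 strains. Negative heat estimates without a tag, with Npl3 and with Mex67 made up 56.5%, 43.4% and 47.3% of all features. In this order they were 18, 17 and 17 of 21 exit genes (medians −0.26, −0.20 and −0.43) and 14, 15 and 14 of 19 translocation genes. They were 8, 6 and 8 of 12 folding enzyme genes, 9, 3 and 6 of 13 degradation genes and 2, 1 and 4 of 4 UPR signalling genes. The N-glycosylation list had negative estimates for 18 of 25 genes without a tag, 21 with Npl3 and 20 with Mex67. Its medians were −0.18, −0.25 and −0.45 beside −0.07, 0.10 and 0.05 over all features. Of its genes that averaged 50 counts or more, DPM1, which makes the dolichol-linked mannose donor, was the lowest with Mex67 at −1.25 ± 0.37 (edgeR, adjusted p = 0.467), and OST3, an oligosaccharyltransferase subunit gene, with Npl3 at −1.01 ± 0.40 (adjusted p = 0.422). UBC7, a ubiquitin-conjugating enzyme of ER-associated degradation, was the highest such gene of its list with Mex67 at 1.50 ± 0.58 (adjusted p = 0.467), and PTC2, a phosphatase that dampens Ire1 signalling, was at −0.06 ± 0.39, −0.60 ± 0.36 and −0.49 ± 0.36 in the 3 strains.

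Against the control, 8 of the 94 listed genes were called with Npl3 at 42 °C, 8.51% beside 7.45% of all features, a share near the background. The 6 that were higher were SPC2 (2.92 ± 0.66), a signal peptidase subunit gene, ERJ5 (2.58 ± 0.62), a J-domain co-chaperone gene of the ER, SRP21 (2.34 ± 0.51) of the signal recognition particle, OST5 (2.06 ± 0.56) of the oligosaccharyltransferase, ERV14 (1.83 ± 0.50), a cargo receptor gene of COPII vesicles, and ROT1 (1.83 ± 0.47), which encodes an ER chaperone. They are 410 to 888 bp long, shorter than each of the 10 members. The 2 that were lower were ERV46 (−1.58 ± 0.41), a gene of the COPII vesicle membrane, and DPM1 (−1.55 ± 0.38), with lengths of 1248 and 804 bp (edgeR, adjusted p from 0.0221 to 0.0447 for the 8). At 25 °C SRP21 alone was called (2.25 ± 0.45, edgeR, adjusted p = 0.0343). After the length correction none of the 94 was called at 25 °C or 42 °C, where 1 and 0 of all features were. With any single one of the control libraries or Npl3 replicate 1 left out, at most 1 of all features was called at 42 °C. PTC2 lay at −1.35 ± 0.39 with Npl3 at 42 °C (adjusted p = 0.0527), and none of the lists held a call with Mex67 against the control.

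Between the precipitates, SPC2 (−2.56 ± 0.61) and SBH2 (−1.92 ± 0.46), a subunit gene of a Sec61-related channel, were lower with Mex67 than with Npl3 at 25 °C, and ERV46 was higher (1.72 ± 0.40), with edgeR's adjusted p from 0.0404 to 0.046, which made 3.19% of the listed genes beside 2.8% of all features. At 42 °C SRP21, SBH2, SSS1 of the translocation channel, OST5 and ERV14 were lower, by estimates from −1.74 to −1.98 (edgeR, adjusted p from 0.0383 to 0.0471), 5.32% beside 3.93%. The genes lower with Mex67 are 243 to 537 bp long, while ERO1 and ERV46, higher with Mex67, are 1692 and 1248 bp long. None of these list calls remained after the length correction, where 0 of all features were called at either temperature.

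The genes with the pattern most like KAR2 over the 12 libraries, among 2242 with a mean of at least 50 counts, were PDR5, a drug efflux pump gene (Pearson r of log2 CPM 0.93), SSA2, a cytosolic Hsp70 gene (0.91), and SSE1, an Hsp110 gene of the cytosol (0.91). For PDI1 they were UBA1, the ubiquitin-activating enzyme (0.97), KAP95, the importin beta gene (0.95), and CCT6, a chaperonin subunit gene (0.95). For HAC1 they were SAM3, a permease gene (0.85), BMH1, a 14-3-3 protein gene (0.80), and RPN10, a proteasome subunit gene (0.79). By rank correlation the nearest genes were KSP1 for KAR2 (0.94), PAN1 for PDI1 (0.97) and SAM3 for HAC1 (0.88). The nearest gene thus changed with the measure for KAR2 and PDI1 but not for HAC1, and the genes next to it changed for each. These values share libraries, depth and gene length with the comparisons above and carry no test.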

How the data were processed

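The authors deposited whole-number counts per annotated feature, 1 table per library. The submitters' processing notes name build R64 and the tools STAR, DESeq2, CASAVA 1.8.2 and, from Subread 1.5.0-p1, featureCounts. How strand and reads that map to several places were handled is not given in the sources used here. Per the labels' protocols, rRNA was not depleted.

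Features were named by locus tag (6048) or symbol (119) from a RefSeq table of the same assembly, and 959 were not matched; overlap of the 10 genes with these was not examined. Tests ran in edgeR 4.0.16 under R 4.3.3, with TMM scaling, robust glmQLFit and glmQLFTest. The low-count filter was filterByExpr, set to 10 counts and a total of 15. The 12 libraries formed 1 fit with 1 mean per group, 6 residual degrees of freedom and a common biological coefficient of variation of 0.356. Benjamini-Hochberg adjustment at 0.05 ran over all 5245 features in each of 12 comparisons, 3 of them (Mex67 against Npl3) added after the values were seen. An SE is the log2 change over the root of F and pools the spread of all groups. Log2 values of single libraries and cultures used a prior count of 2. Total counts per library set the precision of low genes, and the floors of 3 counts and the binomial intervals cover counting error only. The method was run on simulated counts with larger planted changes than most described here and with no trend with gene length. That run gives no measure of power for the differences reported.

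The members, lists and rules were chosen with earlier results of these data known. KAR2 and HAC1 are named in each comparison, other members where called or at an unadjusted p under 0.05, and others were named after their values were seen. List genes are the called ones or the highest and lowest with a mean of at least 50 counts.

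The growth protocol divides a culture between the temperatures, but the labels do not state that equal numbers mark the same culture. The deviations of equally numbered libraries of a strain correlated at 0.266 (no tag), 0.114 (Npl3) and 0.601 (Mex67) over 2247 genes, and these libraries were also paired in a fit. Between strains the correlations ran from −0.174 to 0.455, which does not settle a pairing. Alternatives were RLE size factors, DESeq2 1.42.0, no low-count filter, total counts, only the compared groups, both blocks, offsets corrected for gene length (lowess, span 0.4) and leaving out each library. Figures were drawn with matplotlib 3.10.9.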

Additional observations from a re-analysis of the deposited data

How the results depend on the processing

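The counts of members called were 0 under all alternatives for the 3 heat changes, their 3 differences, Mex67 against the control at both temperatures and Mex67 against Npl3 at 25 °C. A gene to which DESeq2 gave no adjusted p counted as not called. For Npl3 against the control at 25 °C the count of 0 became 1 (ERO1) with DESeq2, no low-count filter and the replicate number as a block. At 42 °C it became 1 with DESeq2 and 0 to 2 without single libraries. For Mex67 against Npl3 at 42 °C the count of 1 became 2 with DESeq2, 0 with total counts, the length correction or only the compared groups, and 0 to 3 without single libraries.

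The median over the 10 members, moved as follows without single libraries: −0.82 to 0.11 for the heat change with Npl3, −1.61 to −0.82 for Npl3 against the control at 42 °C, and 0.42 to 1.16 for Mex67 against Npl3 at 42 °C. The differences of heat changes gave −0.76 to 0.24 (Npl3 minus no tag), −0.19 to 0.52 (Mex67 minus no tag) and 0.052 to 0.76 (Mex67 minus Npl3). With total counts the medians were −0.59 (Npl3, 42 °C), 0.76 (Mex67, 42 °C) and 0.52 (Mex67 minus no tag). That scale alone moved the median of all features to 0.52 for Npl3 and 0.70 for Mex67 against the control at 42 °C.

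Of 40 named values, 8 changed sign in some setting, and none of them was called. HAC1 with Npl3 against the control at 25 °C, at −0.00, was 0.020 with DESeq2, 0.021 with RLE, 0.24 with total counts, 0.036 with no filter, 0.015 with only the compared groups and −0.38 to 0.34 without single libraries. The other HAC1 ranges without single libraries were −0.020 to 0.37 (heat, Mex67), −0.22 to 0.39 and −0.39 to 0.12 (Mex67 against the control, 25 and 42 °C), −0.54 to 0.075 (Mex67 minus no tag) and −0.24 to 0.43 (Mex67 against Npl3, 25 °C). With total counts HAC1 was 0.54 (Mex67, 42 °C) and 0.19 (Mex67 minus no tag). KAR2 ranged from −1.62 to 0.049 (heat, Npl3) and from −1.31 to 0.35 (Npl3 minus no tag), and was 0.048 for the latter with total counts. The causes were not tested.

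Over all features, Npl3 against the control at 25 °C had 126 calls and 1 (length correction) to 300 (replicate block) in other settings, and at 42 °C 391 and 0 to 661 (total counts). Without single libraries these were 0 to 3 and 0 to 666. Mex67 against Npl3 had 147 and 0 to 396 at 25 °C, and 206 and 0 to 456 at 42 °C, with 0 to 4 and 0 to 401 without single libraries. The heat change with Npl3 had up to 46 calls and with Mex67 up to 10. The planned counts of promoter motifs were not run, as no sequence was used here. With 2 libraries a group, and 87741 counts in the smallest, intervals are wide, such as that of KAR2 under heat with Mex67, from −0.68 to 1.77.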
